A study of Mus musculus with 63 samples.

Results

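The 7 GABA-A receptor subunit genes Gabra2, Gabra3, Gabra4, Gabra5, Gabrb1, Gabrb2 and Gabrd were described cell by cell in neurons of mouse visual cortex. The labels call a cell either light sensitive (LS) or not (NS). The genes were taken by symbol from the expression table of the series, and all 7 symbols were present among its 20183 rows. Each sample was the soma of 1 cell, drawn into a glass pipette in vivo within layer 2/3 of V1, the primary visual cortex, and sequenced by Smart-seq2, a full-length method without molecular identifiers. The study classed a cell as LS when it gave a calcium signal to most of a series of drifting grating stimuli, and as NS when it gave at most a single one. All cells came from wild-type C57BL/6 mice aged 70 days, under light anesthesia and loaded with a calcium dye, and no group carried a transgene. The table held 63 cells, 46 LS and 17 NS, and the filters that the study states left 35 LS and 12 NS cells, on which all values rest unless said otherwise. Values are FPKM, fragments per kilobase of exon and per 1000000 reads. The labels tie no cell to a mouse or a day, so the cells of a group were taken as 1 sample, LS and NS were compared by size without a test, and the SD over cells is a measure of spread only.

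GABA-A receptors are pentameric chloride channels opened by GABA, and they carry most fast inhibition in the cortex. A typical receptor joins alpha and beta subunits with a gamma subunit, and GABA binds where an alpha meets a beta. The alpha subunit sets much of the affinity for GABA, the kinetics and the drug response. The delta subunit takes the place of gamma, most often beside alpha4, in extrasynaptic receptors that respond to low ambient GABA and to neurosteroids. RNA of several subunits in a cell shows which combinations could be built there, not which receptors were assembled.

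Gabra2, Gabra4 and Gabrb1 lie in 1 cluster on chromosome 5 of the GRCm38 build, and are shown first because their reads were found together in most LS cells. Gabra2 spans chr5:70957597-71095849 on the minus strand, Gabra4 chr5:71569749-71658308 on the minus strand and Gabrb1 chr5:71658113-72149037 on the plus strand. Gabra4 and Gabrb1 start head to head, and their annotated spans overlap by 196 bases, of which 46 are exon bases of both genes. The libraries do not mark strand, so reads from those 46 bases cannot be told apart. Gabrd lies at chr4:155384980-155398112, Gabra5 at chr7:57407672-57510059, Gabrb2 at chr11:42419757-42629028 and Gabra3 at chrX:72432681-72656848. RefSeq windows of 250 bases before a transcript start (GRCm38.p6) were at hand for 6 of the 7 members, 10 windows in all. Parts of the windows of the 3 clustered genes that lie outside annotated exons read, from 5′ to 3′ on each gene's own strand, as follows. Capitals mark letters of the motifs searched, on either strand.
Gabra2 upstream, chr5:71095850-71096099, minus strand: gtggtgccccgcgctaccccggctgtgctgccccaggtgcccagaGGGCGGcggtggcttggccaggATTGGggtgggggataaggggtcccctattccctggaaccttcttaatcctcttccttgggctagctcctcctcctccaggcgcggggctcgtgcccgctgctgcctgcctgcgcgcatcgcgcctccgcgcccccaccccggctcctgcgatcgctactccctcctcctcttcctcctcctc
Gabra4 upstream, chr5:71658364-71658558, minus strand: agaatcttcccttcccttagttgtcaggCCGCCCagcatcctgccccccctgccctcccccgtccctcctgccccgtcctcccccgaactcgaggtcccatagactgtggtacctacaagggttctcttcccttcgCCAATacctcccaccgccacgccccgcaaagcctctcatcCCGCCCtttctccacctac
Gabrb1 upstream of the downstream start, chr5:71699825-71699931, plus strand: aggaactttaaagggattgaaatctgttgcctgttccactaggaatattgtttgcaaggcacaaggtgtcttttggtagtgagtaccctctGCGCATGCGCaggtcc
The GC box GGGCGG stood in windows of Gabra2, Gabra4 and Gabrb2, and 32.7% of all 32851 windows held it. The CCAAT box CCAAT was found in windows of Gabra2, Gabra3, Gabra4, Gabra5 and Gabrb2, against 33.8% of all windows. The NRF1 core GCGCATGC occurred in 1 of the 10 windows, that of the downstream Gabrb1 start, where its matches on both strands overlap, and in 2.26% of all windows. TATAAA was present in windows of Gabrb2 and Gabra3, against 12.4% of all windows, and neither the CRE TGACGTCA nor the EGR forms GCGTGGGCG and GCGGGGGCG occurred in any member window. A match describes the letters only.

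The groups differed in more than their light response, and this stands beside every comparison below. Whole reads recovered from the FPKM values on the listed genes numbered 382129 to 2548996 per LS cell (median 935631) and 155374 to 901441 per NS cell (median 333627). Olfactory, vomeronasal and taste receptor genes, which cortical neurons hardly use, stood at a median of 2.46% of the level of an even spread of reads over exons in LS cells (range 0 to 30.8%) and at 39.96% in NS cells (2.84 to 200%). The label of neuron was poorly borne out in the NS group. Snap25, Syt1, Rbfox3, Tubb3 and Stmn2, all neuronal genes, had reads of at least 3 of the 5 in 32 of 35 LS cells but in 3 of 12 NS cells, and their summed level had a median of 703 FPKM in LS cells (0 to 1339) and 2.22 FPKM in NS cells (0 to 1101). Excitatory markers (Slc17a7 with Neurod2) exceeded inhibitory markers (Gad1 with Gad2) in 30 LS and 2 NS cells, the opposite held in 4 LS and 6 NS cells, and 1 LS and 4 NS cells had none of these 4 genes. Among markers of other cells, the astrocyte list had a median of 101 FPKM over LS cells and of 138 FPKM over NS cells, the microglia list 263 and 554 FPKM, the oligodendrocyte list 9.53 and 3.28 FPKM and the precursor list 0 and 6.07 FPKM. The whole excitatory list had medians of 741 and 208 FPKM and the whole inhibitory list 131 and 160 FPKM. Endothelial markers had a median of 0 in both groups, and haemoglobin genes, also with medians of 0, reached 61741 FPKM in an LS cell and 53.8 FPKM in an NS cell. Neurod6, Vip and Cldn5 had no read in any NS cell. The part of these differences in the subunit results was not tested.

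The 7 subunits together were higher in LS cells. Their summed level was 107 ± 96.3 FPKM (SD, n = 35 cells) in LS and 26.4 ± 32.004 FPKM (SD, n = 12 cells) in NS cells, a log2 ratio of 2.02. An LS cell had reads of 4.26 ± 1.62 of the 7 subunits and an NS cell of 1.67 ± 1.30. Gabra2, Gabra4, Gabra5 and Gabrd had a mean at least 2-fold higher in LS cells, which is 4 of 7 against 33.8% of the 16760 genes that averaged 1 FPKM or more in either group. Gabra3 alone was at least 2-fold lower, 1 of 7 against 38.9% of those genes. The median log2 ratio was 1.46 over the 6 members with reads in both groups, 2.20 with Gabra5 added at its lower bound, and -0.36 over the 14473 genes with reads in both groups. The share of cells with a read was at least 25 percentage points higher in LS cells for 5 of 7 members, against 36.5% of the genes.

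**Figure D1:**
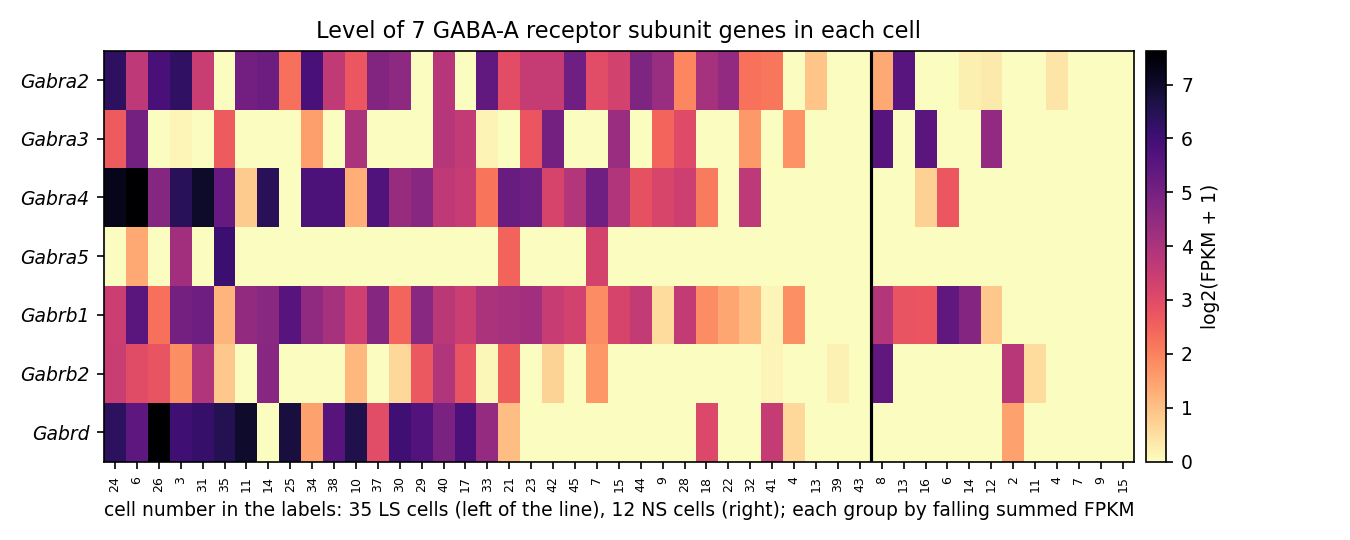
Level of each subunit gene (rows, log2(FPKM + 1)) in each cell (columns, numbered as in the labels), with 35 LS cells left of the line and 12 NS cells right of it, each group by falling summed FPKM. Gabra2, Gabra4 and Gabrb1 fill most LS columns, Gabrd fills 21 of them, and most NS columns hold at most 2 coloured cells.

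Among the alpha subunits, Gabra2 encodes alpha2, a subunit of synaptic receptors known for its place at the axon initial segment of pyramidal cells. In LS cells it ranged from 0 to 79.2 FPKM with a median of 10.7, and 29 of 35 cells had a read (82.9%, exact 95% binomial interval 66.4 to 93.4%). In NS cells it had reads in 5 of 12 cells (41.7%, 15.2 to 72.3%) with a median of 0. NS cell 13, at 46.4 FPKM, held 95.2% of the NS sum, and the other 4 stood between 0.165 and 1.59 FPKM. The means were 18.7 ± 21.4 FPKM for LS against 4.06 ± 13.3 FPKM for NS cells, 4.60-fold higher in LS. Leaving out NS cell 13 moved the log2 ratio from 2.20 to 6.47. That cell lay above the LS median, and every other NS cell below it.

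Gabra4 encodes alpha4, the usual partner of delta outside the synapse. It was the most unequal of the well detected alphas between the groups. LS cells ran from 0 to 197 FPKM with a median of 11.7 and reads in 28 of 35 (80.0%, 63.1 to 91.6%), whereas 2 of 12 NS cells had any (16.7%, 2.09 to 48.4%). Those were NS cell 6 at 5.55 FPKM and NS cell 16 at 0.674 FPKM, on 9 reads in all against 8088 reads in LS cells. Mean levels were 31.9 ± 46.4 FPKM for LS against 0.519 ± 1.597 FPKM for NS cells, 61.5-fold apart. The lowest of the 28 LS cells with reads stood at 0.760 FPKM, above NS cell 16. Without NS cell 6 the log2 ratio went from 5.94 to 9.03, and over all 63 deposited cells it was 3.21.

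Gabra3 encodes alpha3, in the adult cortex a less abundant subunit than alpha2. Its mean went the other way, 4.42 ± 8.25 FPKM for LS against 9.37 ± 17.98 FPKM for NS cells, 2.12-fold higher in NS. Reads were nonetheless found in more of the LS cells, 16 of 35 (45.7%, 28.8 to 63.4%) against 3 of 12 (25%, 5.49 to 57.2%). The 3 NS cells stood at 21.4 FPKM (cell 12), 43.9 FPKM (cell 16) and 47.2 FPKM (cell 8), and the 16 LS cells between 0.0906 and 31.3 FPKM. NS cell 8 was excitatory-marked, with reads of 1 of the 5 neuron markers and a receptor-gene level of 113%. NS cells 12 and 16 were inhibitory-marked, with reads of 4 and 5 of these markers and receptor-gene levels of 14.9 and 2.84%. The 2-fold difference rested on those 3 cells: leaving out NS cell 8, 12 or 16 took the gene under the limit, with the log2 ratio at -0.43 without cell 8, and the mean stayed higher in NS cells whichever single cell was left out. As a difference of mean log2(FPKM + 0.1), which weighs the share of cells with reads more, Gabra3 was 0.45 higher in LS cells.

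Gabra5 encodes alpha5, an extrasynaptic subunit best known from the hippocampus and deep cortical layers. It was the rarest member, with reads in 5 of 35 LS cells (14.3%, 4.81 to 30.3%), against 0 of 12 NS cells, which allows a share of up to 26.5% in counting error alone. The positive LS cells stood at 1.59, 4.59, 8.65, 17.2 and 67.4 FPKM, and the last, LS cell 35, held 67.8% of the LS sum. Set against a floor of 3 reads over all NS cells, the LS mean of 2.84 ± 11.7 FPKM was at least 13.6-fold higher. Leaving out LS cell 35 lowered that bound from 3.76 to 2.17 on the log2 scale. All 5 of these cells also had Gabra4 reads.

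Among the beta subunits, which are needed for assembly and for transport to the membrane, Gabrb1 (beta1) was the most widely detected member in both groups. LS cells ranged from 0 to 47.3 FPKM with a median of 9.77, and 32 of 35 had a read (91.4%, 76.9 to 98.2%). Among NS cells, 6 of 12 had a read (50%, 21.1 to 78.9%), with a median of 0.414 and a highest value of 41.1 FPKM in cell 6. The means of 12.8 ± 12.5 FPKM for LS against 7.72 ± 13.1 FPKM for NS cells differed by 1.65-fold, less than the SD over cells in either group, and the ranges overlapped almost entirely. The medians lay further apart than the means, with a log2 ratio of 4.56. Without NS cell 6 the log2 ratio of means went from 0.73 to 1.45, over the 2-fold limit, and over all 63 cells it was -0.11.

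Gabrb2 encodes beta2, a common beta subunit of the adult brain. It was sparse in both groups. Its LS levels ran from 0 to 24.2 FPKM with a median of 0.0812, and 18 of 35 cells had a read (51.4%, 33.99 to 68.6%). The 3 NS cells with reads stood at 0.471, 12.6 and 41.5 FPKM, the last, cell 8, with 76.1% of the NS sum. Means of 2.85 ± 5.36 FPKM for LS against 4.55 ± 12.2 FPKM for NS cells gave a log2 ratio of -0.68. This direction hung on 1 cell, since the ratio was 1.26 without NS cell 8, and 0.13 when reads were pooled over cells. NS cell 8 had reads of 1 of the 5 neuron markers and a receptor-gene level of 113%.

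Gabrd encodes delta, the subunit of tonic inhibition. In LS cells it was present in 21 of 35 (60%, 42.1 to 76.1%), and these 21 ran from 0.531 to 194 FPKM with a median of 49.1. The mean of 33.2 ± 46.7 FPKM was the highest of the 7, although the median over all LS cells was 6.88 FPKM. Among NS cells a single read in cell 2, worth 1.86 FPKM, was all that was found, in 1 of 12 cells (8.33%, 0.211 to 38.5%). Pooled over cells and per read on the listed genes, LS cells had 475 times as much Gabrd, with a counting interval of 85.3 to 18784. Filtering mattered for this gene: over all 63 deposited cells the log2 ratio of means was 0.91 instead of 7.74. A removed NS cell, cell 5, had 239 FPKM on 132 reads.

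**Figure D2:**
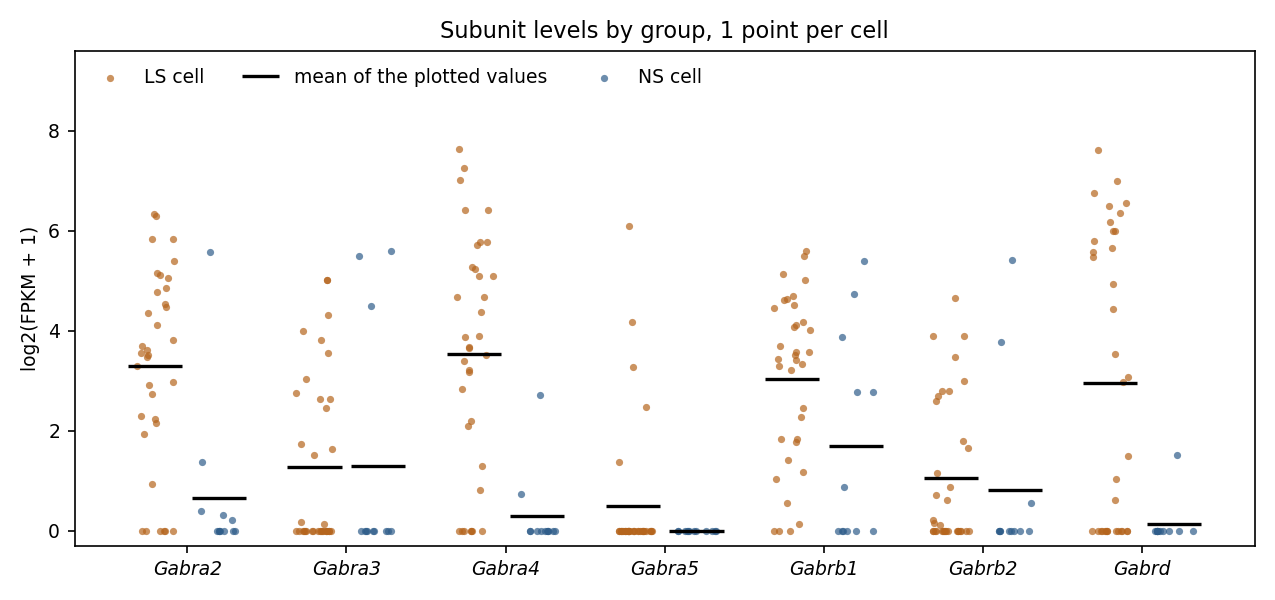
Level of each subunit gene as log2(FPKM + 1) on the vertical axis, 1 point per cell, LS (35 cells, brown) left and NS (12 cells, blue) right for each gene, with a black bar at the mean of the plotted values. Gabrd and Gabra4 separate the groups most, while the 3 NS cells with Gabra3 lie at the upper end of the LS points.

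The order of the mean levels in LS cells was Gabrd, Gabra4, Gabra2, Gabrb1, Gabra3, Gabrb2 and Gabra5. No neighbours in this order differed beyond their spread. Gabrd exceeded Gabra4 in 13 LS cells and was below it in 18, with a mean difference of 1.27 ± 59.6 FPKM, and Gabra4 and Gabra2 led each other in 16 cells each. Gabrb1 was higher than Gabra3 in 24 LS cells and lower in 8, and Gabrb2 was higher than Gabra5 in 15 and lower in 3, with no read of either in the other 17. In NS cells the order was Gabra3, Gabrb1, Gabrb2, Gabra2, Gabra4, Gabrd and Gabra5, and Gabra3 and Gabrb1 each exceeded the other in 3 of 12 cells.

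The shares of cells with a read were also computed at an equal depth. Thinning makes the number of reads equal but not the RNA captured from a cell, and the part of depth in the differences was not tested. When every cell was thinned to 140000 reads, the expected share of LS cells with a read went from 80.0 to 78.0% for Gabra4, from 60 to 54.7% for Gabrd and from 51.4 to 38.5% for Gabrb2. NS cells changed most for Gabra2, from 41.7 to 23.2%, and from 16.7 to 12.7% for Gabra4 and from 8.33 to 6.94% for Gabrd. The difference in the number of subunits per cell was 2.59 before thinning and 2.54 after it. Among LS cells the number of subunits had a Pearson correlation of 0.24 with log2 reads (n = 35 cells, which share the protocol and differ in RNA content). The level of receptor genes in the same cell gave a second yardstick. Of 149 subunit detections in LS cells, 143 exceeded the mean receptor-gene FPKM of their own cell, and of 20 in NS cells, 12 did. That mean had a median of 0.258 FPKM over LS cells and of 4.25 FPKM over NS cells. Detections in LS cells thus had a lower limit to pass, and these counts do not compare the groups. Gabra2 passed the mean of its own cell in 1 of its 5 NS cells and Gabrd in 0 of 1. Gabra3 passed in 3 of 3 and Gabrb1 in 5 of 6.

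**Figure D3:**
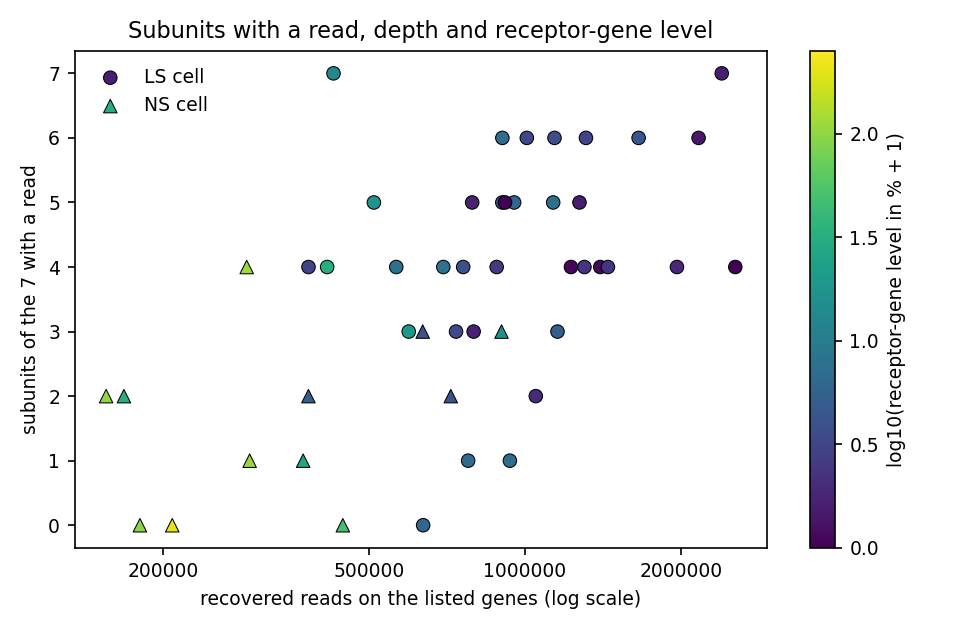
Number of the 7 subunits with a read (vertical axis) against recovered reads on the listed genes (horizontal axis, log scale), 1 point per cell, circles for LS (35 cells) and triangles for NS (12 cells), coloured by the receptor-gene level. NS cells lie towards fewer reads and 0 to 4 subunits, and LS cells towards more reads and 0 to 7 subunits.

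Cells of low receptor level were 31 LS and 3 NS cells (13, 14 and 16). Gabrb1 had a read in all 3 of these NS cells, at 5.82, 5.87 and 25.5 FPKM. The LS mean of 12.8 ± 11.6 FPKM was close to the NS mean of 12.4 ± 11.3 FPKM, but this rested on NS cell 14. That cell, at 25.5 FPKM, held 68.5% of the NS Gabrb1 sum, and NS cells 13 and 16 lay below the LS mean. NS cell 14 had reads of 2 neuron markers and no read of the excitatory or inhibitory markers. The difference in Gabra2 fell under the 2-fold limit, with 19.4 ± 22.4 FPKM for LS against 15.5 ± 26.7 FPKM for NS cells (log2 ratio 0.32), and NS cell 13 held 99.6% of that NS sum. Gabra4 stayed low in all 3, with 0.674 FPKM as the highest value against an LS mean of 28.8 ± 38.2 FPKM. Gabrd and Gabrb2 had no read in any of the 3, against means of 34.01 ± 48.6 and 2.97 ± 5.59 FPKM in LS cells. Gabra3 was at 43.9 FPKM in 1 of them and at 0 in the others.

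The co-expression of subunits within a cell was then examined. An alpha and a beta of the 7 were both found in 32 of 35 LS cells (91.4%, 76.9 to 98.2%), against 6 of 12 NS cells (50%, 21.1 to 78.9%). In the cells of low receptor level the shares were 28 of 31 and 3 of 3, so the difference of 41.4 percentage points turned to -9.68 there. NS cell 14 was counted there on 1 Gabra2 read, its only alpha read. That read was worth 0.165 FPKM, below the mean receptor-gene level of 0.333 FPKM in this cell. The turn in sign rested on this 1 read. A total of 21 different sets of the 7 subunits occurred among the 35 LS cells, and 15 of these sets were seen in 1 cell each. The commonest set, Gabra2 with Gabra3, Gabra4 and Gabrb1, was found in 5 LS cells, followed by that set with Gabrb2 and Gabrd added (4 cells) and Gabra2 with Gabra4, Gabrb1 and Gabrd (4 cells). All 7 subunits were present in 2 LS cells, and 1 LS cell and 3 NS cells had none. At least 2 of the 4 alphas were read in 27 of 35 LS cells (77.1%), against 3 of 12 NS cells (25%), and at least 3 in 16 LS cells and 0 NS cells.

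The alpha4 and delta pair of extrasynaptic receptors was common in LS cells. Gabra4 and Gabrd reads occurred together in 18 of 35 LS cells (51.4%, 33.99 to 68.6%), against 0 of 12 NS cells (up to 26.5%), and each of the 18 also had Gabrb1 or Gabrb2. The product of the shares of the 2 genes alone gives 16.8 LS cells. Gabrd without Gabra4 was seen in 3 LS cells and Gabra4 without Gabrd in 10. In level, the 2 genes had a Pearson correlation of log2(FPKM + 1) of 0.24 over the LS cells. Gabra4 followed the beta subunits more closely, at 0.56 with Gabrb1 and 0.58 with Gabrb2. These correlations are over 35 cells that share the protocol and whose depth and RNA content vary, and are a description only. Every LS cell with Gabra4 also had Gabrb1 (28 of 28), and so did every LS cell with Gabrd (21 of 21) and with Gabra3 (16 of 16). Since Gabrb1 was read in 32 of 35 LS cells, the products of the shares are close to these counts, at 25.6, 19.2 and 14.6 cells. Gabra2, Gabra4 and Gabrb1, the neighbours on chromosome 5, were read together in 25 of 35 LS cells (71.4%, 53.7 to 85.4%), against 0 of 12 NS cells. Their pairs, too, were close to the products of the shares. In LS cells, Gabra2 with Gabra4 was read in 25 cells against 23.2, and Gabra2 with Gabrb1 in 28 against 26.5. In NS cells, Gabra2 with Gabra4 was read in 0 cells against 0.83.

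**Figure D4:**
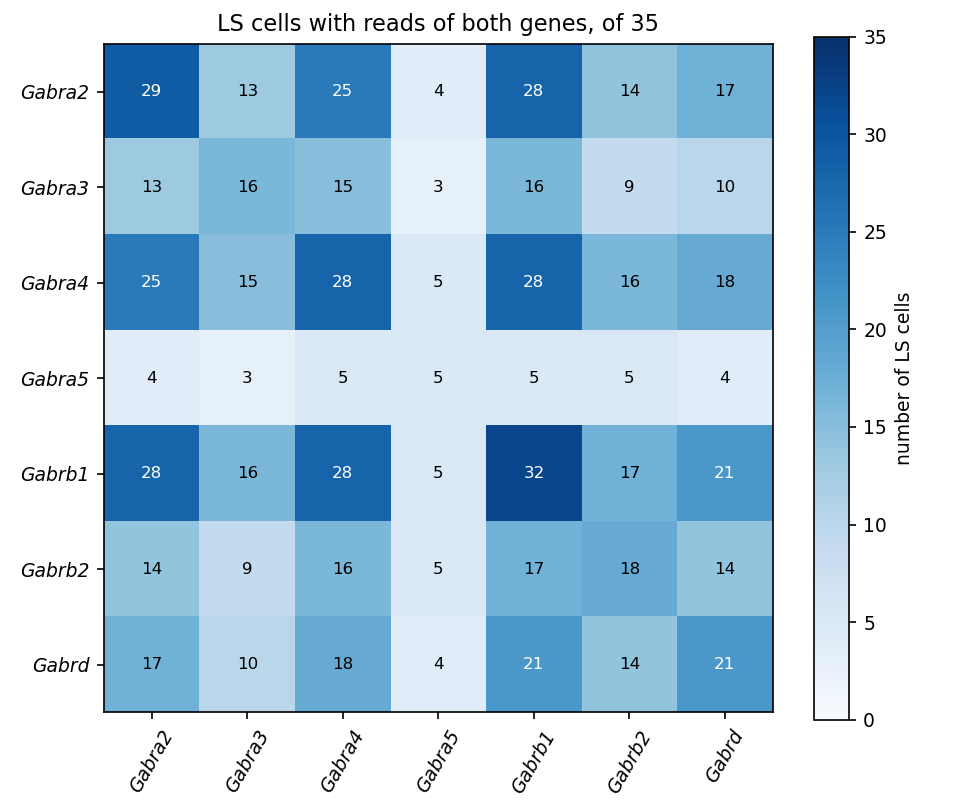
Number of LS cells, of 35, with reads of both the row gene and the column gene, for the 7 members, with the number for a single gene on the diagonal. Gabrb1 was read in all 28 cells with Gabra4 and in all 21 cells with Gabrd.

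Which subunit dominated differed from cell to cell. Among the 4 alphas of the set, with no other alpha counted, Gabra2 and Gabra4 each led in 13 LS cells, Gabra3 in 6 and Gabra5 in 1, and 2 LS cells had none. Where Gabra2 led, it made up a median of 83.3% of the summed alpha FPKM, and where Gabra4 led, 68.2%. Between the 2 betas of the set, Gabrb1 led over Gabrb2 in 27 LS cells and trailed in 6. Of all 7 members, Gabra4 was the highest in 11 LS cells, Gabrd in 10 and Gabra2 in 8. In NS cells no member led in more than 3.

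**Figure D5:**
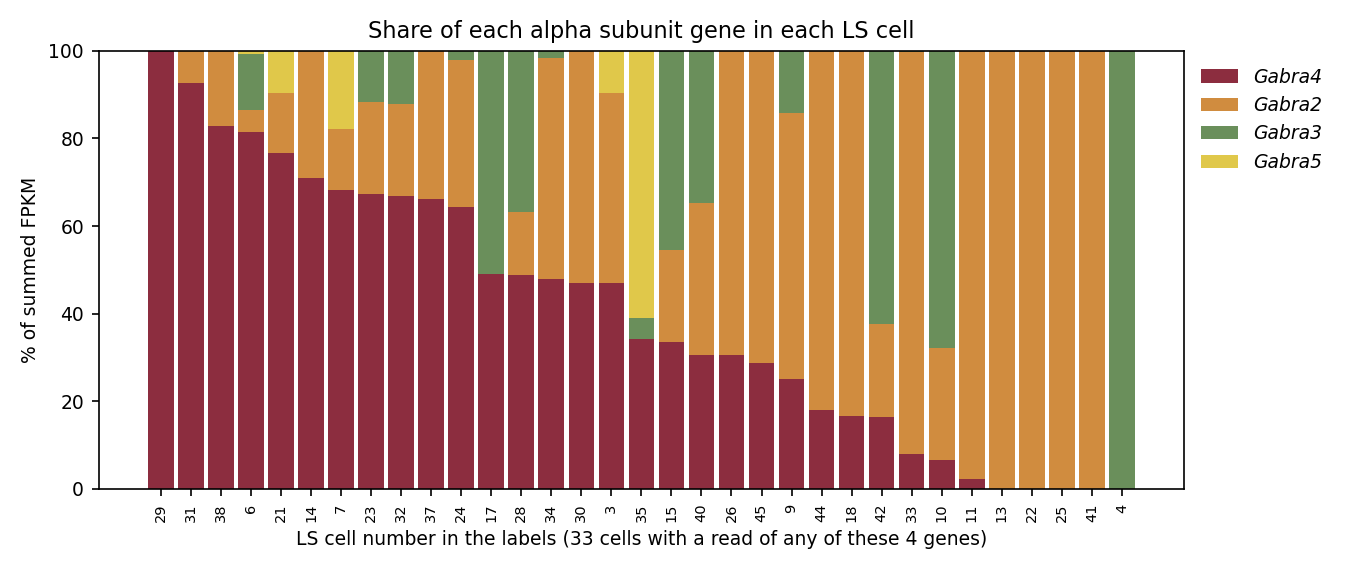
Share of each gene in the summed FPKM of Gabra2, Gabra3, Gabra4 and Gabra5 (vertical axis, percent) in each of the 33 LS cells with a read of any of these 4 (bars, numbered as in the labels and ordered by falling Gabra4 share). Gabra2 and Gabra4 lead in 13 cells each, Gabra3 in 6 and Gabra5 in 1.

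The members were then compared between the marker classes of LS cells. Gabrd had reads in 21 of the 30 excitatory-marked LS cells (70.0%, 50.6 to 85.3%) and in 0 of the 4 inhibitory-marked ones (up to 60.2%), with a mean of 38.7 ± 48.3 FPKM in the former. These intervals cover counting error only, and their overlap does not show the classes to be alike. Gabra4 had reads in 25 of 30 and in 3 of 4 cells, with means of 33.7 ± 48.2 and 26.5 ± 38.9 FPKM. The means of Gabra2 were 19.7 ± 22.3 and 15.7 ± 14.9 FPKM and those of Gabra3 4.38 ± 8.40 and 5.85 ± 8.95 FPKM, each pair closer than its SD. All 5 cells with Gabra5 were excitatory-marked. With 4 inhibitory-marked cells, a difference smaller than these intervals was not detectable. Of these 4, LS cell 39 had reads of 2 of the 5 neuron markers and of 1 subunit. LS cell 9, another of the 4, had a receptor-gene level of 30.8%. Inhibitory-marked NS cells, 6 in number, had no Gabrd and no Gabra5 read, 9 Gabra4 reads and a Gabrb1 mean of 8.94 ± 15.99 FPKM.

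Other genes of the GABA system were taken from lists chosen by function. Of 20 scaffold and trafficking genes, 7 were at least 2-fold higher in LS cells, near the 33.8% of all 16760 genes compared, among them Gphn, for the synaptic anchor gephyrin (9.36 ± 11.7 against 1.56 ± 3.46 FPKM), and Gabarapl1 (248 ± 176 against 21.2 ± 48.1 FPKM), and 3 (Iqsec3, Dmd and Mdga1) were at least 2-fold lower, against 38.9% of all genes. The median log2 ratio of these 20 was 0.31. The 5 genes taken for GABA synthesis, vesicle loading, uptake and breakdown (Gad1, Gad2, Slc32a1, Slc6a11 and Abat) were each at least 2-fold lower in LS cells, where 38.9% of all genes were, with a median log2 ratio of -2.41, beside the 6 of 12 NS cells and 4 of 35 LS cells that were inhibitory-marked.

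The genes whose levels were most like each member over the 35 LS cells were taken from 6122 genes with reads in at least 50% of these cells, by Pearson correlation of log2(FPKM + 1). For Gabrd they were Cckbr (0.70), Fzd3 (0.69) and Calb1 (0.67), and for Gabra4 Tubb3 (0.77), Phactr1 (0.75) and Ccdc32 (0.73). Gabra2 went with Sharpin (0.67), Syp (0.62) and Sh3gl2 (0.61), and Gabrb1 with Ttc3 (0.77), Aak1 (0.76) and Scg3 (0.76). For Gabra3 the values were lower, with Ap3m2 (0.57), Pi4k2a (0.56) and Strip2 (0.56), and for Gabrb2 Bmpr2 (0.64), Zfp292 (0.63) and Dmtn (0.62) led. Gabra5 had Ctif (0.69), Gucy1a2 (0.57) and Plxnd1 (0.57), over only 5 cells with Gabra5 reads. The genes named were picked as the highest of 6122 over 35 cells. How high such a pick reaches by chance was not tested, so the values are a description only. LS cells 13, 39 and 43 were included. They had reads of 0, 2 and 1 of the 5 neuron markers and of at most 1 subunit. The part of these cells in the correlations was not tested.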

How the data were processed

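The 63 libraries were single somata aspirated in vivo and amplified with Smart-seq2. The deposited values are FPKM. Per the labels and the study's methods, the authors filtered reads with AfterQC, aligned them with STAR 2.5.3a to GRCm38, counted reads per gene with featureCounts, computed FPKM with scater, and left out genes under 1 FPKM and genes that do not encode proteins. FPKM rests on exon length and on a scaled library total, so a value near the lower end stands for 1 or a few reads.

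Whole reads per gene and cell were recovered by dividing FPKM by the value of 1 read (GENCODE M21 exon lengths, or a length solved from the values, as for Gabra5, tolerance 0.01). Genes with such a solution held 99.2% of the values above 0. On simulated data of 63 cells and 19895 genes for the LS and NS comparison, all 63 cell totals were recovered within 0.1% and 198 of 200 planted changes within 0.3 on the log2 scale. The changes were planted only in genes expected to have more than 200 reads over the simulated NS cells, with counting error as the only spread. The simulation therefore checks the recovery of reads, not ratios that rest on few NS reads, such as those of Gabra4, Gabra5 and Gabrd. Rows with a shared name were dropped, which left 20179 genes.

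Cells were kept with at least 1000 genes above 1 FPKM, at most 25% mitochondrial FPKM, no product of astrocyte, oligodendrocyte or mixed neuron markers above 0, and not named by the study as low in cDNA. This left 47 cells. The study retained more, so its filters may differ in a detail. Means, SD over cells, shares with exact 95% binomial intervals and pooled read ratios with exact counting intervals were computed in Python 3 with numpy, pandas and scipy. Intervals cover counting error only, and reads without molecular identifiers are not independent molecules. A gene counted as higher or lower at a 2-fold difference in means. For the ratios of the members, a floor of 3 reads over the group was set where a group had 0. In the counts over the lists and over all genes no floor was set, so a gene with a mean of 0 in either group passed. All 7 members are named, as are listed genes that the text counts and, for each member, the 3 genes of highest correlation. The 7 members, the lists and the motifs were chosen with earlier results of these data known. Some genes of the GABA system are not reported here. Cells were grouped by the phenotype label. Alternatives covered cell filters, detection limits, thinning to 140000 or 200000 reads, group summaries, scaling and leaving out each cell.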

Additional observations from a re-analysis of the deposited data

Results flagged for a closer look

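Of the cells removed by the filters, 3 NS cells held subunit levels above every NS cell that was kept. NS cell 5 had 239 FPKM of Gabrd on 132 reads, against a highest kept value of 1.86 FPKM. It was removed by the marker scores and had no read of any of the 5 neuron markers, a receptor-gene level of 92.8% and 171870 reads in all. NS cell 10 had 89.97 FPKM of Gabrb1 on 208 reads, against 41.1 FPKM, in a library of 153669 reads. NS cell 17 had 39.99 FPKM of Gabra4 (227 reads), 11.6 FPKM of Gabrd (31 reads) and 0.808 FPKM of Gabra5 (2 reads), against highest kept values of 5.55, 1.86 and 0 FPKM. It was excitatory-marked, had reads of all 5 neuron markers and 10340 genes above 1 FPKM, and was the 1 NS cell with Gabra4 and Gabrd together. No removed LS cell exceeded the highest kept LS cell for any of the 7 genes. Both groups were too large for the check of single outlying cells.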

How the results depend on the processing

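Each result was recomputed under 16 or 17 alternatives for the ratios of means and 13 or 14 for the detection results. The summed level stayed higher in LS cells in all 17 (log2 ratio 1.01 to 3.58), the number of subunits per cell in all 14 (difference 1.86 to 3.09), and Gabra4 with Gabrd in all 13 (39.8 to 60 percentage points). The difference in the share of cells with an alpha and a beta was -9.68 percentage points at a receptor level under 10% (31 LS, 3 NS). Its sign there rested on 1 Gabra2 read in NS cell 14. The difference was 0 in cells with at least 3 of 5 neuron markers (32 LS, 3 NS), an alternative chosen after seeing the data. The number of subunits at least 2-fold higher in LS was 3 to 5. Gabra2 fell under the limit in cells of low receptor level (log2 ratio 0.32) and in cells with at least 3 of 5 neuron markers (0.39), while Gabrb2, with 0 reads in the 3 NS cells of each, passed it. The number at least 2-fold lower was 0 over all 63 cells and with means of log2(FPKM + 1) or log2(FPKM + 0.1), and 2 in cells with at least 3000 genes and in excitatory-marked cells. Gabra3 reversed to 0.45 with means of log2(FPKM + 0.1). Gabrb2, at -0.68 in the main values, was at least 3.63 in cells of low receptor level, against a floor of 3 reads over the NS cells, and -3.05 in excitatory-marked cells, where NS cell 8 held all its NS reads. The cause of these moves was not tested beyond the fewer cells they rest on.

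Leaving out each of the 47 cells in turn gave log2 ratios of 1.89 to 2.46 for the summed level, 2.44 to 2.80 for the number of subunits, 4 to 5 subunits higher and 0 to 2 lower, 36.9 to 45.97 percentage points for an alpha with a beta, and 50 to 52.9 for Gabra4 with Gabrd. The count of lower subunits was 0 without NS cell 8, 12 or 16 and 2 without LS cell 14. No paired analysis was possible because the replicate numbers only name cells. Medians gave no ratio where the NS median was 0, which left Gabrb1. Scaling by the cell's own reads, or without mitochondrial genes, shifted the median log2 ratio of all genes by 0.0034 and 0.019. NS cells had fewer reads and fewer cells, and this limits every NS share.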
